A study of Mus musculus with 12 samples.

Results

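The 34 genes described here mark the first fates that a mouse embryo cell can take: 11 mark primitive endoderm, 10 mesendoderm, 7 epiblast and neural cells, and 6 trophectoderm. Membership rests on the fate a gene marks and on no measured value, although the list was drawn up with earlier results of these data known. Every non-control probe whose transcript belongs to one of them was taken. This gave 42 of the 55681 non-control probes of a 1-colour Agilent mouse array, and 34 of the 20660 genes that could be named. RNA came from 12 induced pluripotent stem (iPS) cell clones, with 1 array per clone. The 6 Aid+/+ clones were 967B2, 967B4 and 967B6 (series 967B) and 979B1, 979B3 and 979B4 (series 979B). The 6 Aid-/- clones, in which the gene of the cytidine deaminase Aid is disrupted, were 979F1, 979F2 and 979F3 (series 979F) and 981E1, 981E4 and 981E5 (called series E here). All 12 were male, of a mixed C57BL6, DBA and 129S4 background, carried the Nanog-GFP reporter, and were made from embryonic fibroblasts with retroviruses for Klf4, Sox2 and Oct3/4, in some cases with c-Myc. They were kept on feeder cells before passages on gelatin with LIF and puromycin, and RNA was taken at passage 6. Each clone is a line from 1 colony, so the spread given is that between clones, and the sources used here do not say which clones share a fibroblast culture. Series 979B and 979F share the number of 1 experiment that gave clones of both genotypes. The comparison asks whether clones without Aid differ from clones with it in signs of differentiation or priming.

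In the embryo, the inner cell mass gives rise to the primitive endoderm, which lays down a basement membrane of collagen IV and laminin, and to the epiblast, while the outer cells form the trophectoderm. Epiblast cells move from a naive to a primed state, in which Fgf5 and Otx2 are expressed, and then enter either the primitive streak, the source of mesendoderm, or the neural lineage. Mouse pluripotent cultures are known to hold minor populations that express primitive endoderm or primed epiblast genes. On these arrays a whole culture was measured, and fewer cells of a type and less RNA per cell cannot be told apart.

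Values are log2 signals relative to the 75th percentile of each array, so that 0 is the level of that percentile, and a difference of 1 is a doubling. Levels of different probes cannot be compared. The arrays had between 31677 and 33647 probes well above background and no saturated spot. Series 967B lay on slide 1, 979F on slide 2, and 979B and series E on slide 3. All 20 pluripotency markers examined, among them Pou5f1, Nanog and Zfp42, were well above background in every clone. Fibroblast markers were also measurable. Of 20, 10 were detected (well above background) on all arrays and 1, Lum, on none, and their summed linear signal ranged from 76.3 to 141 in Aid+/+ and from 118 to 209 in Aid-/- clones, in units of the 75th percentile. It was lowest in 967B4 (76.3) and highest in 979F3 (209), 979F2 (203) and 981E4 (184). A linear sum is carried by the brightest probes. Fn1 was the brightest of the 20 in every clone and varied little, from 5.86 in 967B6 to 6.66 in 981E1 on the log2 scale. Dimmer markers varied far more, such as Col1a2, from -3.79 in 967B4 to 3.84 in 979F3. The sum is thus mostly a reading of Fn1 and, where it was high, Vim. Both Aid probes gave more signal in the clones labelled Aid-/- (from 0.67 to 2.90 for the brighter probe) than in those labelled Aid+/+ (from -4.87 to -2.76). Per the study, these probes lie in the 3′ UTR and read a transcript driven by the promoter of the inserted resistance cassette, and the genotypes were established by PCR on genomic DNA. The probes thus separate the genotypes but do not check the disruption.

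No lineage marker passed the test between the genotypes. In limma with Benjamini-Hochberg adjustment, 0 of 34 genes reached an adjusted p under 0.05, where 0.0611% of all probes did. At an unadjusted p under 0.05 there were 5 genes, 14.7% of the 34, beside 13.6% of all probes, so the share was near the background. These were Sox17, Sparc, Col4a1, Col4a2 and Pax6, and the methods' t-test with Benjamini-Hochberg adjustment called none of the 34 either. Counting a gene when any of its probes had an unadjusted p under 0.05 in limma gave 6, with Fgf8 added. That count has no background of its own. In 0 of the 34 were the 6 values of one genotype all above those of the other, which held for 2.18% of all probes. With the experiment number, read from the clone name, as a block, the genotype difference equals that of 979F minus 979B. In this alternative, added after seeing the data, 0 of the 34 genes and 0.614% of probes were called. The experiments that the study lists do not include the number of series E. The median difference of the 34 genes was -0.04 on the log2 scale, beside -0.01 over all probes.

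**Figure D1:**
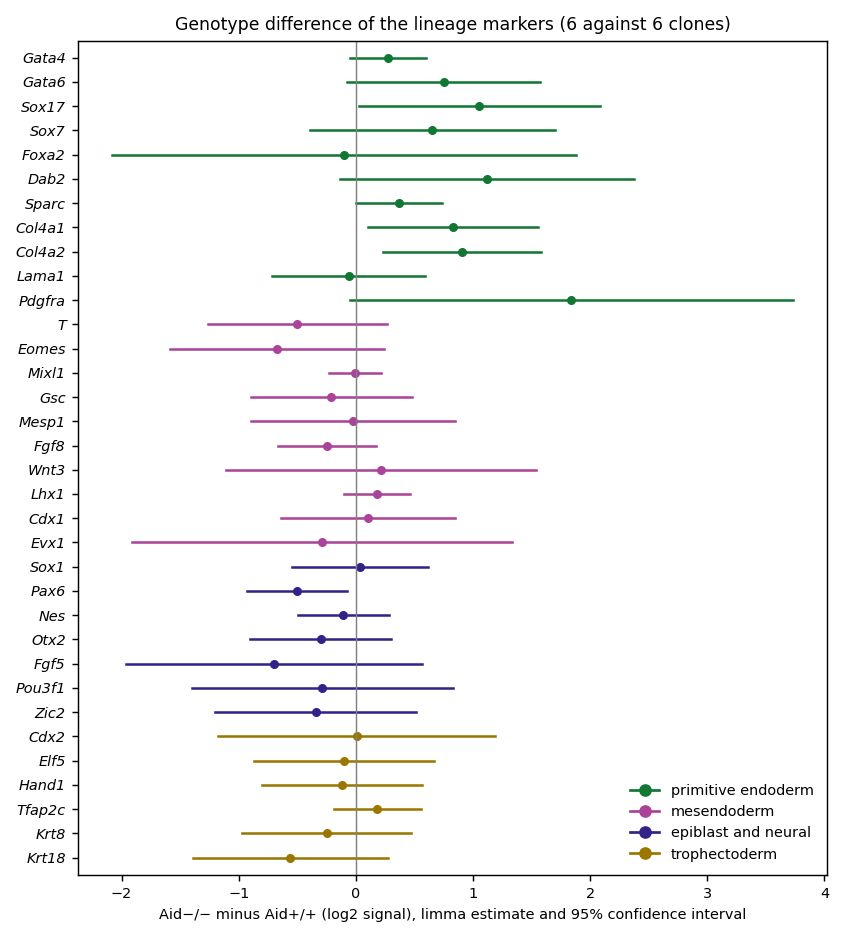
The plot shows the genotype difference of each of the 34 genes, Aid-/- minus Aid+/+ in log2 signal, as a point with its 95% confidence interval from limma (6 against 6 clones), coloured by fate. The intervals are of very unequal width, from Mixl1, which lay at background, to Foxa2, and those of Sox17, Sparc, Col4a1, Col4a2 and Pax6 exclude 0 before adjustment.

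The 5 genes differed in size and direction. Col4a2, a chain of basement membrane collagen, had a lowest, median and highest value of -2.36, -1.50 and -0.34 in Aid+/+ clones and of -1.12, -0.59 and -0.20 in Aid-/- clones. The genotypes overlapped, and the difference was 0.90 (SE 0.31, 95% interval 0.23 to 1.58, adjusted p = 0.228 in limma), with 6 of 6 Aid-/- clones above the Aid+/+ median. Col4a1, its partner chain, differed by 0.83 (interval 0.11 to 1.56, limma adjusted p = 0.299) and Sox17, a transcription factor of endoderm, by 1.05 (0.02 to 2.08, limma adjusted p = 0.358). The Sox17 probe was not well above background in 6 of the 12 clones, and with normexp background correction its difference was 0.23. A second Sox17 probe differed by 0.72 (-0.25 to 1.70). Sparc, a collagen-binding matrix protein, differed by 0.37 (0.00 to 0.74, limma adjusted p = 0.365). A second Sparc probe, detected on all 12 arrays, differed by 0.35 (-0.25 to 0.95). The intervals of both second probes included 0. Pax6, a factor of neural progenitors, had lowest, median and highest values of -2.21, -1.66 and -1.20 in Aid+/+ and of -2.84, -2.18 and -1.89 in Aid-/- clones, a difference of -0.50 (-0.93 to -0.08, limma adjusted p = 0.287). Again the groups overlapped. With normexp the difference of Pax6 was -0.32, and with slide as a block that of Pax6 was -0.33 and that of Sparc 0.58.

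These differences were not alike in the separate pairs of series. For Col4a2 the Aid-/- series E exceeded 967B by 1.65 (interval 0.94 to 2.36, limma adjusted p = 0.0862), but on slide 3, where both genotypes were present, series E exceeded 979B by 0.62 (-0.09 to 1.33), and 979F exceeded 979B by 0.16 (-0.55 to 0.87). With slide as a block the genotype difference rests on slide 3 alone and equals that of series E minus 979B. Pax6 showed the same order of sizes, with -0.88 for series E minus 967B, -0.33 for series E minus 979B and -0.12 for 979F minus 979B. The difference of the genotype effect between these pairs was called for 0 of 34 genes and 0.106% of probes in limma. At an unadjusted p under 0.05 there were 8 genes, among them Tfap2c (-0.87, limma adjusted p = 0.173). The share of all probes at that threshold was not counted for this difference, so the 8 have no background.

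Primitive endoderm genes made up 4 of the 5, and 9 of the 11 had a positive difference, with a median of 0.75, or 0.28 with normexp. The fibroblast markers moved in the same direction: 17 of the 20 had an unadjusted p under 0.05 between the genotypes and 0 an adjusted p under 0.05 (limma), with a median difference of 1.49, or 0.80 with normexp, 0.44 with slide as a block and 0.94 without clone 967B4. Several primitive endoderm genes, Pdgfra, Sparc, Dab2 and the collagen IV chains among them, are also expressed by fibroblasts, and the part of such cells in the genotype values was not tested. Leaving out clone 967B4 took the difference of Pdgfra from 1.84 to 0.99 and that of Dab2 from 1.12 to 0.53. With normexp these were 0.93 and 0.54, and with slide as a block 0.10 and 0.25. The difference of Gata6 went from 0.75 to 0.27 with normexp. Of 20 other primitive endoderm genes, 0 were called and 4 had an unadjusted p under 0.05.

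Single clones differed widely from each other. Of the 34 genes, 22 were detected on all 12 arrays, 10 on some and 2, Mixl1 and Mesp1, on none. For the 22, the median range between the lowest and highest clone was 1.89 on the log2 scale, beside 0.85 over the 28321 probes detected on all arrays and 1.11 for the 20 pluripotency markers. The lists of other lineage genes had median ranges of 1.45 (primitive endoderm), 1.80 (mesendoderm), 1.61 (epiblast and neural) and 1.63 (trophoblast). That of the fibroblast markers was 4.37, so a wide range was not particular to the 34 genes. The widest of the 22 were Fgf5 (3.62), Pou3f1 (3.20) and Eomes (3.15), wider than 99.2%, 98.7% and 98.7% of the 28321 probes. Lhx1 (0.89), Nes (0.96) and Tfap2c (1.05) were the narrowest.

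Among the primitive endoderm transcription factors, Gata6, which specifies this lineage, stood high in 4 clones of 3 series. Its value was -2.16 in 981E5, -2.28 in 981E1, -2.30 in 979F1 and -2.87 in 979B3, but -3.47 in 981E4 and between -4.10 and -3.80 in the other 7. These 4 clones lay on slides 2 and 3 and had either genotype, so neither the genotypes nor the series separated Gata6. Within 979B, clone 979B3 (-2.87) stood above 979B1 (-3.99) and 979B4 (-4.03), and within 979F, clone 979F1 (-2.30) above 979F2 (-4.09) and 979F3 (-3.94).

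Sox17 followed the same division. It was well above background in 6 clones, with -2.73 in 981E1, -3.05 in 981E5, -3.20 in 979F1, -3.68 in 979B3, -4.58 in 979F3 and -4.66 in 967B6. Its second probe was well above background in the first 4 of these and in no other clone. Sox7, another factor of this lineage, was also highest in 981E1 (-1.52) and 981E5 (-2.40), but its next values were those of 967B4 (-3.09) and 967B6 (-3.10). Foxa2, a factor of definitive and visceral endoderm, was highest in 979B3 (-1.58), 981E1 (-1.99) and 981E5 (-2.33), closely followed by 967B2 (-2.42) and 967B6 (-2.62), and it was not well above background in 979F2 and 979B1. Gata4, the partner of Gata6 in primitive endoderm, varied less, from -2.73 in 967B2 to -1.60 in 981E5.

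Among the matrix genes, the 2 collagen IV chains divided the clones as Gata6 did. Col4a1 was 0.50 in 981E5, 0.35 in 981E1, 0.05 in 979B3 and 0.05 in 979F1, and at most -0.58 elsewhere, down to -1.81 in 967B4. Col4a2 was -0.20 in 981E1, -0.21 in 981E5, -0.34 in 979B3 and -0.43 in 979F1, and at most -0.76 elsewhere, down to -2.36 in 967B4. The order of the 8 lower clones was identical for both chains. Neither passed the test for any difference among the 4 series, where the limma adjusted p was 0.0575 for Col4a2 and 0.136 for Col4a1.

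The 2 collagen genes lie head to head, and their promoters are shown because both genes had the same 4 highest clones and the same order of the other 8. Each window runs from 250 bases before to 50 bases after the start of the transcript in RefSeq (GRCm38.p6). Col4a1 (chr8:11312777-11313076, minus strand) and Col4a2 (chr8:11312555-11312854, plus strand) share 78 bases, printed in capitals, which read as reverse complements of each other in the 2 lines. Their start sites lie 21 bases apart, at 11312826 for Col4a1 and 11312805 for Col4a2, so the annotated transcripts overlap at their starts.
Col4a1: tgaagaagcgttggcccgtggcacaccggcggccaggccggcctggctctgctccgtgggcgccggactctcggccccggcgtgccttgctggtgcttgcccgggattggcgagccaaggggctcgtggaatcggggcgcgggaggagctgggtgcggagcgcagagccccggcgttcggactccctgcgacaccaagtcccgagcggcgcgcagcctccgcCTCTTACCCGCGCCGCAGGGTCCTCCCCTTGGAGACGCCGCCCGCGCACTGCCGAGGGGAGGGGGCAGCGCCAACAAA
Col4a2: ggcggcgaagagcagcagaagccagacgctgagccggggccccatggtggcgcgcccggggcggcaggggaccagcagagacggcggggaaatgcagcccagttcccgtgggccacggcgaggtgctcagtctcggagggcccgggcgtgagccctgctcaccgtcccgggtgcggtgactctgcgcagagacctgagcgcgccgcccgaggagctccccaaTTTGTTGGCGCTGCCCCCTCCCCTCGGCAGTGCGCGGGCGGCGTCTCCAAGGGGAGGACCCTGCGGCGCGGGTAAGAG
The letters AGATAA, a form of the site known for GATA factors, were searched on both strands and were in neither window. A window was available for 22 of the 34 genes, 30 windows in all, of which 5 held AGATAA (16.7%), beside 11.2% of all 32851 promoter windows.

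Exactly these 4 clones (979F1, 979B3, 981E1 and 981E5) were the 4 highest for Gata6, Sox17, Col4a1 and Col4a2. Of the 22 genes detected on all arrays this held for 3, and of all 28321 such probes for 0.0459%, or 13 probes, so few genes divided the clones in this way. The set of clones was chosen after these values were seen, and so no test is given. Of 20 other primitive endoderm genes, 11 were detected on all arrays, and Aqp8, a water channel, had the same 4 highest clones, with -0.80 in 981E1, -1.37 in 979B3, -1.42 in 979F1 and -1.53 in 981E5 and at most -3.09 elsewhere. Aqp8 was the only 1 of the 11 to do so. Srgn, a proteoglycan core protein of the same list, not well above background in 1 clone, did too. It was -0.18 in 981E5, -0.43 in 979F1, -0.68 in 979B3 and -0.86 in 981E1 and at most -2.57 elsewhere. For 3 of the 11, in contrast, 981E5 was the lowest of all clones: Lamb1 (3.98), Lamc1 (3.82) and Lrp2 (0.40). The summed fibroblast signal was not highest in these clones: it was 168 in 979F1, 158 in 981E1, 141 in 979B3 and 118 in 981E5, below that of 979F2, 979F3 and 981E4.

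**Figure D2:**
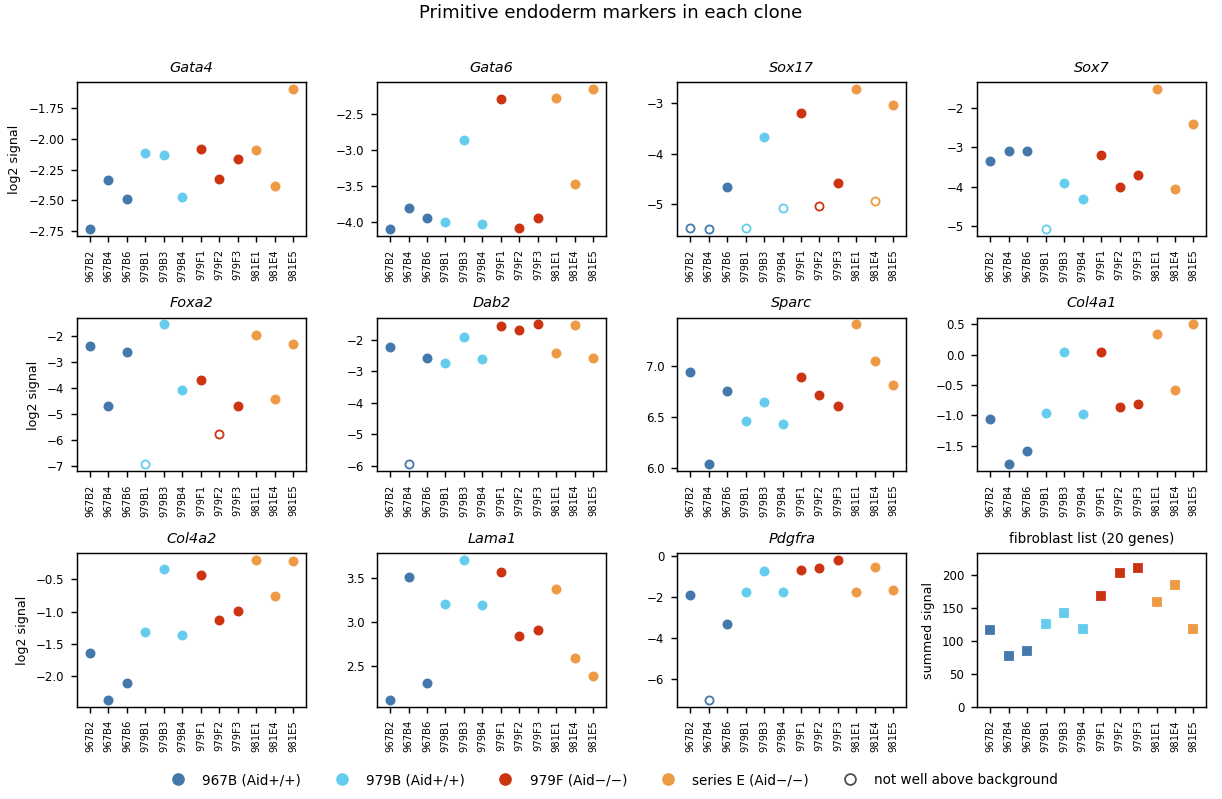
Each panel shows the log2 signal of a primitive endoderm marker in the 12 clones, coloured by series, with open circles where the probe was not well above background, and the last panel shows the summed linear signal of the 20 fibroblast markers in units of the 75th percentile of the array. Gata6, Sox17, Col4a1 and Col4a2 were highest in 979B3, 979F1, 981E1 and 981E5, while Pdgfra and Dab2 were lowest in 967B4, where the fibroblast sum was lowest too.

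The other genes of this group did not follow that division. Pdgfra, a growth factor receptor of primitive endoderm and of mesenchyme, was highest in 979F3 (-0.21), 981E4 (-0.57), 979F2 (-0.62), 979F1 (-0.69) and 979B3 (-0.73). It lay between -1.94 and -1.67 in 981E5, 981E1, 979B1, 979B4 and 967B2, at -3.32 in 967B6, and was not well above background in 967B4 (-7.00). Dab2, an endocytic adaptor, was highest in 979F3 (-1.52), 981E4 (-1.55), 979F1 (-1.58) and 979F2 (-1.70) and likewise not well above background in 967B4 (-5.95). The 3 clones with the highest Pdgfra were those with the highest fibroblast sum, and the clone with the lowest had the lowest sum. Here the part of fibroblasts was not tested.

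Sparc was highest in 981E1 (7.40) and 981E4 (7.05) and lowest in 967B4 (6.03). Its second probe differed more between the series, with series E above 979B by 1.06 (limma adjusted p = 0.0686), than the first (0.58, adjusted p = 0.215). Lama1, a laminin chain of the embryonic basement membrane, had its own order, from 3.70 in 979B3, 3.57 in 979F1 and 3.51 in 967B4 down to 2.11 in 967B2.

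Eomes, a T-box factor of the primitive streak and of trophectoderm, was 1.25 in 967B4, -0.69 in 967B2 and -0.79 in 967B6, between -1.35 and -1.28 in 979B, between -1.90 and -1.72 in 979F, and between -1.08 and -0.77 in series E. The 3 clones of 979F were its lowest. Clone 967B4 stood far above all others, and in the second Eomes probe as well (-1.49, against -3.50 for the next clone). Without 967B4, Eomes passed the test for any difference between series and in 979B minus 967B and 979F minus series E, although no test called it with all clones.

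Clone 967B4 was also the highest for Gsc, a homeobox factor of the organizer (-2.33, next -2.67 in 981E4), and for Cdx1, a caudal-type factor of the posterior axis (1.54, next 0.67 in 981E4). It was the highest clone for 4 of the 22 genes detected on all arrays, Pax6 being the other, and for 21.5% of all such probes. It was also highest for 10 of the 20 pluripotency markers, among them Klf4 (4.79, next 4.02) and Nanog (0.19, next -0.08). At the same time it was the lowest clone for 5 of the 22 (Sparc, Col4a1, Col4a2, Lhx1 and Hand1), beside 11.7% of probes, and for 8 of 10 fibroblast markers.

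T, the brachyury factor, was well above background in 6 clones, with -3.34 in 981E1, -3.63 in 967B2, -3.64 in 967B4, -3.76 in 967B6, -4.26 in 979B3 and -4.61 in 981E4. Its 4 highest clones thus included all of 967B. Evx1, a posterior homeobox factor, was highest in 967B2 (-2.24), 967B6 (-2.33) and 981E1 (-2.57) and at most -3.77 in the other 9. Wnt3, the ligand that induces the streak, was highest in 967B2 (-3.24), 981E1 (-3.33), 967B6 (-3.89) and 981E4 (-3.90), and was not well above background in 5 clones. The same 3 clones, 967B2, 967B6 and 981E1, were thus among the 4 highest for T, Evx1 and Wnt3. This set was picked after the values were seen, and its share over all probes was not counted. None of the 3 genes was detected on all arrays, Evx1 being well above background in 8 clones.

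Lhx1, a LIM homeobox factor, was lowest in 967B4 (-4.72) and otherwise varied from -4.28 to -3.83, with the 3 clones of 979F highest. Fgf8, a growth factor of the streak, was -1.88 in 967B2, -2.71 in 967B4, -2.61 in 967B6, between -2.72 and -2.58 in 979B, between -2.89 and -2.37 in 979F, and -2.56, -2.76 and -3.43 in 981E1, 981E4 and 981E5. A second Fgf8 probe, also highest in 967B2, was lowest in 981E5 too, but a further one disagreed. It was well above background in only 3 clones, 979F3 (-1.64), 981E4 (-3.06) and 979F2 (-3.21), and between -7.30 and -6.90 in the other 9. All 3 were Aid-/-, and they were also the 3 clones with the highest fibroblast sum. The genotype difference of this probe was 2.27 (interval 0.22 to 4.32, limma adjusted p = 0.316), beside -0.25 and -0.54 for the other 2. The 2 remaining Fgf8 probes did not stand high in 979F2 or 981E4, but the first was next highest after 967B2 in 979F3 (-2.37). Of 20 other mesendoderm genes, 0 passed the test in any comparison, and 14 were detected on all arrays.

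**Figure D3:**
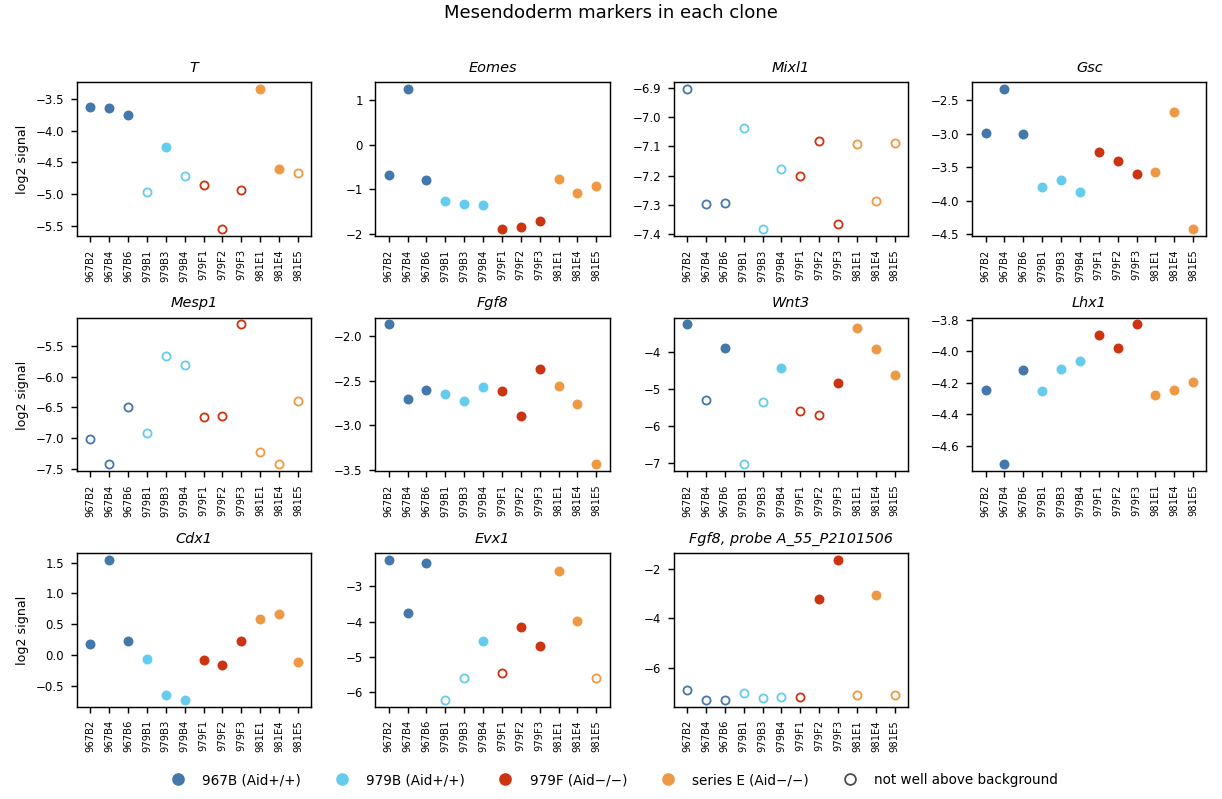
Each panel shows the log2 signal of a mesendoderm marker in the 12 clones, coloured by series, with open circles where the probe was not well above background. Eomes, Gsc and Cdx1 were highest in 967B4, while Evx1 and Wnt3 were highest in 967B2, 967B6 and 981E1, and 1 Fgf8 probe was detected in 979F2, 979F3 and 981E4 only.

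All 7 epiblast and neural genes were well above background in every clone. Fgf5, a growth factor of the primed epiblast, was 1.35 in 967B2 and 1.12 in 967B6, then 0.15 in 981E1, and between -2.27 and -0.40 in the other 9. The sister clone 967B4 had -1.02, so the series was divided. Zic2, a zinc finger factor of epiblast and neural plate, was 1.39 in 967B6 and 0.88 in 967B2, then 0.61 in 981E1, and lowest in 967B4 (-0.85) and 981E5 (-1.05). Otx2, a homeobox factor of the primed epiblast and anterior brain, was 5.08 in 967B6, 4.95 in 967B2, 4.88 in 981E1, 4.65 in 981E5 and 4.62 in 967B4, and between 3.68 and 4.04 in the other 7.

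The 2 highest clones were 967B2 and 967B6 for Otx2, Fgf5 and Zic2 among the 7 genes, and for 4.77% of all probes detected on all arrays. Of the other listed genes detected on all arrays this held for Foxd3, a factor of the epiblast, in the list of epiblast and neural genes, and for the Nodal inhibitors Lefty1 and Lefty2 and the ligand Gdf3 in that of mesendoderm genes. It also held for Lrp2 of the primitive endoderm list, Ascl2 and Id2 of the trophoblast list and Lin28a of the pluripotency markers. These clones were picked after the values were seen, and they lay on 1 slide with 967B4, which did not share this pattern. Otx2 had a limma adjusted p of 0.0726 for any difference between the series.

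Pou3f1, a POU factor of the primed epiblast and neural progenitors, was highest in 979F2 (4.46), 979F3 (4.29), 967B2 (4.22) and 967B6 (4.12) and lowest in 981E5 (1.26). The values between were 3.97 in 979B4, 3.81 in 979F1, 3.68 in 979B3, 3.28 in 981E1, 2.87 in 979B1, 2.70 in 981E4 and 2.65 in 967B4. Clone 981E5 was lowest for Pou3f1, Fgf5, Zic2 and Pax6, 4 of the 7, and for 19.9% of all probes detected on all arrays. In the list of other epiblast and neural genes it was lowest for 8 of the 19 detected on all arrays, with Sox3 at -1.70 (next 0.03) and Dnmt3b, a DNA methyltransferase, at 4.68 (next 5.32).

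Sox1, the earliest neural factor here, was highest in 979F3 (-1.80) and 979F2 (-1.98) and lowest in 967B6 (-3.20) and 981E5 (-3.16). A second Sox1 probe, also detected on all arrays, was again highest in 979F3 (-2.79) and 979F2 (-2.89). Its lowest clones were others, 981E4 (-3.70) and 979B1 (-3.47). Pax6 was -1.20, -1.48 and -1.61 in 967B4, 967B6 and 967B2, the 3 highest values, between -2.21 and -1.70 in 979B, between -2.20 and -1.93 in 979F, and -1.89, -2.19 and -2.84 in 981E4, 981E1 and 981E5. Its second probe was not well above background on any array.

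**Figure D4:**
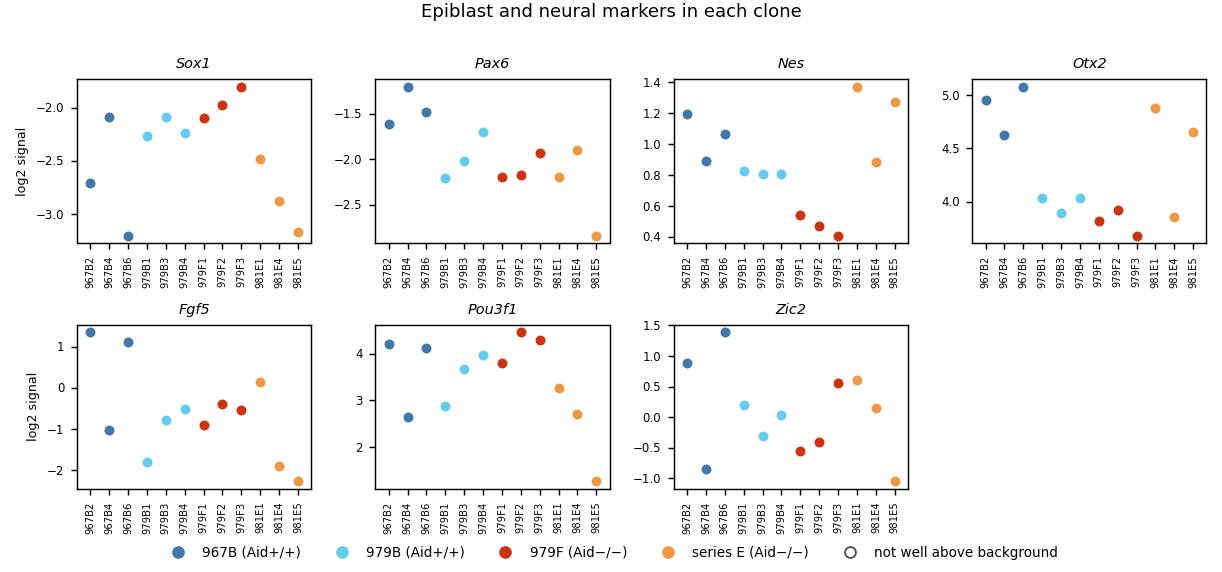
Each panel shows the log2 signal of an epiblast or neural marker in the 12 clones, coloured by series, and all probes were well above background. Fgf5, Zic2 and Otx2 were highest in 967B2 and 967B6, Pou3f1 was lowest in 981E5, and Nes was lowest in the 3 clones of 979F.

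Between the 4 series, 0 of the 34 genes passed the test for any difference in limma (adjusted p under 0.05), beside 4.16% of all probes. With normexp background correction 6 passed (Col4a2, Pdgfra, Nes, Otx2, Tfap2c and Krt18), and without clone 967B4 or 981E4 it was 4 each. At an unadjusted p under 0.05 there were 14 genes (41.2%), beside 21.9% of all probes. Of the contrasts, only 979F minus series E, both Aid-/-, called any of the 34: Nes and Tfap2c, 2 genes or 5.88%, beside 3.02% of all probes. The other contrasts called 0 of 34, beside 0.614% of probes for 979F minus 979B, 4.13% for series E minus 979B, 0.196% for series E minus 967B and 0.711% for 979B minus 967B. At an unadjusted p under 0.05 they gave 2, 7, 10 and 10 genes. The share of all probes at that threshold was not counted for these contrasts, so these counts have no background to be read against.

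Nes, an intermediate filament of neural progenitors, was 0.54, 0.47 and 0.41 in 979F1, 979F2 and 979F3 and 1.37, 0.88 and 1.27 in 981E1, 981E4 and 981E5. It was lower in 979F by 0.70 (difference -0.70, SE 0.14, limma adjusted p = 0.0323), and the 3 clones of 979F were the lowest of all 12, the next being 0.81 in 2 clones of 979B. The series lay on different slides, so slide and series cannot be told apart. Leaving out 1 clone at a time ended the call of Nes for 8 of the 12 clones (967B6, 979B3, 979B4, 979F1, 979F2, 979F3, 981E1 and 981E5), with limma adjusted p values up to 0.119. Vim, the filament of fibroblasts and a partner of Nes, was highest in 979F3, 979F2 and 979F1, with 6.06, 6.03 and 5.66.

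Of the trophectoderm genes, Tfap2c, an AP-2 factor of trophectoderm and germ cells, was 5.17, 4.91 and 4.82 in 981E1, 981E4 and 981E5, the 3 highest values, and 4.48, 4.24 and 4.12 in 979F1, 979F2 and 979F3. The means of the Aid+/+ series lay between. Their clone values were 4.43, 4.31 and 4.30 in 967B and 4.46, 4.66 and 4.47 in 979B, so 979F1 exceeded all of these but 979B3. Tfap2c was lower in 979F than in series E by 0.69 (difference -0.69, SE 0.14, limma adjusted p = 0.0317). Leaving out 1 clone ended this call for 7 of the 12 (967B6, 979B4, 979F2, 979F3, 981E1, 981E4 and 981E5), with limma adjusted p values up to 0.122. The 3 clones of series E were the 3 highest for 2.67% of all probes detected on all arrays. On slide 3, Tfap2c was higher in series E than in 979B by 0.44 (interval 0.13 to 0.74, limma adjusted p = 0.117).

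Krt18 and Krt8, the keratin pair of the simple epithelium of trophectoderm, were lowest in 979F. Krt18 was 3.20, 2.96 and 3.11 in 979F1, 979F2 and 979F3, and 3.62 in 981E4, 4.01 in 979B4 and between 4.22 and 5.37 in the other 7. The 3 clones of 979F were thus the 3 lowest, as they were for Krt8, Eomes and Nes and for 6.33% of all probes detected on all arrays. Krt8 was -0.80, -1.11 and -0.93 in the same clones, with -0.71 in 979B4, -0.54 in 981E4 and between -0.26 and 0.72 elsewhere. The order of the clones was alike for both keratins at the top too, where 981E1 and 981E5 were followed by 967B2 and 979B3. For 979F minus series E the difference was -1.47 for Krt18 (limma adjusted p = 0.0601) and -1.16 for Krt8 (0.109), neither past the threshold. Krt18 passed it in this contrast with the intensity trend, the filter on dim probes and normexp, and without clone 981E4, where Krt8 passed too.

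The 2 keratin genes are neighbours on chromosome 15, with start sites 23.9 kb apart on opposite strands, and their promoters are shown for that reason. Capitals mark the letters GCCNNNGGC, the core known for AP-2 factors such as Tfap2c, and AGATAA, each searched on both strands, with no overlap between them. The windows are those of Krt8 (chr15:102004293-102004592, minus strand) and Krt18 (chr15:102027966-102028265, plus strand) in RefSeq GRCm38.p6.
Krt8: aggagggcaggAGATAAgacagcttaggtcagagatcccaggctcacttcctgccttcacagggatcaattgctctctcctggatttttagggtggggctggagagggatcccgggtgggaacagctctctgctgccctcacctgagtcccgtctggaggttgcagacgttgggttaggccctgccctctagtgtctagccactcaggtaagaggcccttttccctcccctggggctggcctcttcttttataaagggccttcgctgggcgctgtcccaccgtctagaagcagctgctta
Krt18: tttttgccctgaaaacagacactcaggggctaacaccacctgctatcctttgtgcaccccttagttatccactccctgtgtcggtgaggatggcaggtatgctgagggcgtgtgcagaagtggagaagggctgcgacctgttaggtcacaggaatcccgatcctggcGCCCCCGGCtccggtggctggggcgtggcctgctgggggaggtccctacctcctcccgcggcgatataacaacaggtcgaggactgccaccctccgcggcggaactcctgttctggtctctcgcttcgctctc
Krt18 held GCCNNNGGC once and Krt8 did not, while Krt8 held AGATAA once. Of the 30 windows of the 34 genes, 10 held GCCNNNGGC (33.3%), beside 16.6% of all promoter windows, and both collagen IV windows were among them.

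Of 20 other trophoblast genes, 18 were detected on all arrays, and 5 of them, the keratins Krt7 and Krt19, the junction proteins Cdh3 and Cldn4 and the transcription factor Arid3a, had their 3 lowest values in 979F, which held for 6.33% of all probes detected on all arrays. The other 13 did not. Krt7, a further keratin, passed the test in 979F minus series E (-1.38, SE 0.32, limma adjusted p = 0.0484), and Dsp, a desmosome protein, in the same contrast (-1.58, SE 0.35, limma adjusted p = 0.0449) and for any difference between series (limma adjusted p = 0.0403). The summed fibroblast signal of 979F, from 168 to 209, was above that of 981E1 and 981E5 (158 and 118). That of 981E4 (184) lay within the range of 979F, so the 2 series overlapped. The part of this signal in these differences was not tested.

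**Figure D5:**
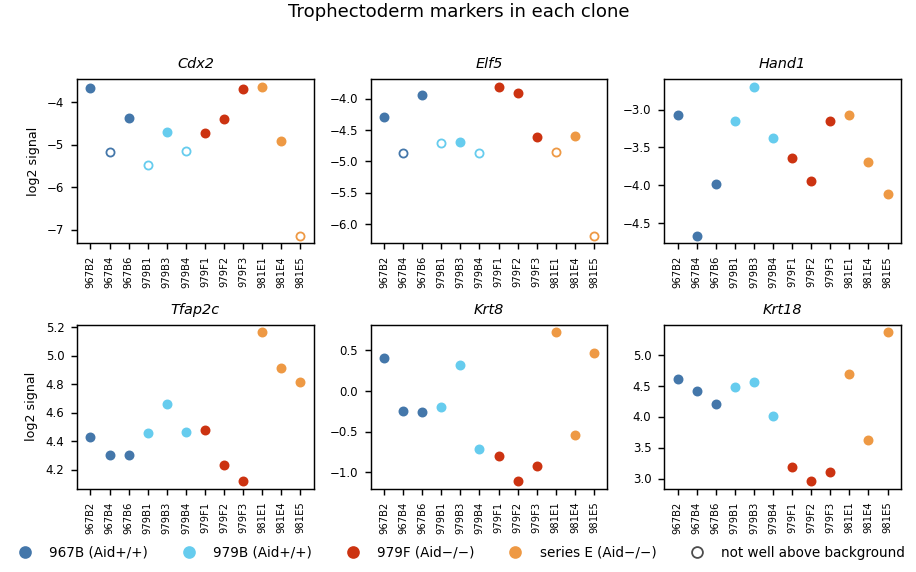
Each panel shows the log2 signal of a trophectoderm marker in the 12 clones, coloured by series, with open circles where the probe was not well above background. Krt8 and Krt18 were lowest in the 3 clones of 979F and Tfap2c was highest in those of series E, while Cdx2 and Elf5, not well above background in every clone, were lowest in 981E5.

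Cdx2, the caudal-type factor that specifies this lineage, was highest in 981E1 (-3.63), 967B2 (-3.65) and 979F3 (-3.68), from -4.91 to -4.37 in 979F2, 967B6, 979B3, 979F1 and 981E4, and not well above background in 979B4 (-5.15), 967B4 (-5.18), 979B1 (-5.47) and 981E5 (-7.14). Elf5, an Ets factor of trophoblast stem cells, was well above background in 7 clones and highest in 979F1 (-3.81) and 979F2 (-3.90). Hand1, a helix-loop-helix factor of trophoblast giant cells and mesoderm, was -2.70 in 979B3, between -3.15 and -3.07 in 967B2, 981E1, 979B1 and 979F3, between -4.12 and -3.38 in 979B4, 979F1, 981E4, 979F2, 967B6 and 981E5, and -4.67 in 967B4. None of the 3 followed the keratins. For Cdx2 the genotype difference was 0.01 with an interval from -1.17 to 1.19, so these clones leave room for a difference in either direction.

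Other genes of the fixed lists passed a test between series. Klf2 and Tbx3, factors of naive pluripotency, were higher in series E than in 979B by 1.10 (limma adjusted p = 0.00455) and 1.37 (0.0118), and lower in 979F than in series E (-1.02 and -1.62, limma adjusted p = 0.0101 and 0.00972). Lin28b, an RNA-binding protein that rises in the primed state, was lower in series E than in 979B (difference -1.02, limma adjusted p = 0.0127) and higher in 979F than in series E by 1.02 (0.0171). Sox11, a factor of neural progenitors, was lower in series E than in 979B (difference -1.29, limma adjusted p = 0.0217). No gene of the fibroblast list was called in any of these contrasts, and no gene of any list but Aid in that of the genotypes.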

How the data were processed

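RNA of 12 iPS cell clones was hybridised by the authors to 1-colour Agilent mouse arrays and read with Feature Extraction 10.7.3.1. The authors deposited a processed intensity of every spot, background-corrected but not yet scaled across arrays, median intensities of spot and background, and a table of scaled log2 values. Here the processed intensity was put on the log2 scale without control and outlier spots, averaged over spots of 1 probe and set relative to the array's 75th percentile. The deposited log2 table, an alternative, had a median difference from these values of 0.00678 or less on each array.

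The 55681 probes were fitted in limma 3.58.1 (R 4.3.3), with a mean per genotype or per clone series, and Benjamini-Hochberg adjustment over all probes. Series are clones that share a name up to the last digit. Genes were named through RefSeq (GRCm38.p6, not the build of the array's design), which matched 27235 of 28685 probes with a transcript accession. For each gene the probe detected on most arrays was used, ties going to the brighter. Values are given in full for genes past the adjusted p, the 12 widest of those detected on all arrays and those with an outlying clone. Full values of other genes, and the sets of clones described, were chosen after the values were seen. The members and all gene lists were chosen with earlier results of these data known. As the labels do not say which clones share a culture, p-values measure only the spread between clones, and precision is limited by how many arrays there are.

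On simulated data of 55580 probes the genotype fit found 75 of 100 probes changed by 1 on the log2 scale and 95 of 100 changed by 2. The series test found 46 and 82. The simulated noise had each probe's spread within series and, apart from the planted changes, no difference between series. Changes were planted only in probes detected on all arrays, as 22 of the 34 genes were. These shares are thus not the power for the 34 genes in the real fit, where series also differed. Alternatives were normexp (offset 50), quantile scaling, a percentile of detected probes alone, the deposited log2 table, a filter (detected on 3 arrays or more), an intensity trend with robust estimation, slide, series or experiment as a block, the methods' t-test and leaving out each clone. Summaries and plots were made in Python 3.11.15 (matplotlib 3.10.9, scipy 1.17.1, numpy 2.4.6, pandas 2.3.3).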

Additional observations from a re-analysis of the deposited data

Results flagged for a closer look

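Within each genotype of 6 clones, 7 of the 64 combinations of gene and genotype held a clone far from the other 5, as measured by its gap to the nearest clone over the whole range. Chance alone flags about 5% of such groups. In Aid+/+ clones these were Gata6 in 979B3 (-2.87, the others at most -3.80), Eomes in 967B4 (1.25, the others at most -0.69), Fgf8 in 967B2 (-1.88, the others at most -2.58), Dab2 in 967B4 (-5.95, not well above background, the others at least -2.75) and Lhx1 in 967B4 (-4.72, the others at least -4.25). In Aid-/- clones they were Pax6 in 981E5 (-2.84, the others at least -2.20) and Cdx2 in 981E5 (-7.14, not well above background, the others at least -4.91). With normexp background correction, 3 of the 7 still stood out by the same measure, Dab2, Eomes and Fgf8. Of the 34 genes none had a genotype effect that differed between the 2 pairs of series past the adjusted p in limma. An unadjusted p under 0.05 was found for 8, and the share of all probes at that threshold was not counted.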

How the results depend on the processing

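Between the genotypes, 0 of the 34 genes were called under any of the 22 alternatives, while the share of all tested probes called, 0.0611%, became 0.0126% with series as a random block, 0.0269% with slide as a random block, 0.192% with quantile normalization, 0.45% with the filter on dim probes, 0.517% with an intensity trend and robust estimation, 0.647% with the methods' t-test, 0.929% with normexp, 4.13% with slide as a fixed block, 0.614% with experiment number as a fixed block (added after seeing the data), and 0.0108% (without 979F2) to 0.12% (without 967B2) leaving out 1 clone. For any difference between the series, the count of 0 of 34 became 2 with the percentile of detected probes (Col4a2 and Tfap2c), 2 with quantile normalization (Nes and Tfap2c), 4 with the filter (Col4a2, Nes, Otx2 and Tfap2c), 5 with the trend (these and Krt18), 6 with normexp (these and Pdgfra) and 0 to 4 leaving out 1 clone. The 4.16% of probes called there became 6.28% with the trend, 7.29% with normexp, 11.8% with the filter and 1.38% (without 979F3) to 8.64% (without 967B4) leaving out 1 clone. In series E minus 979B, quantile normalization called 1 gene (Tfap2c) and leaving out 1 clone 0 to 2 (Sox7 and Otx2 without 981E4). In series E minus 967B, the trend and the filter called 1 each (Col4a2), quantile normalization 1 (Tfap2c) and normexp 2 (both). In 979B minus 967B, leaving out 1 clone gave 0 to 1 (Eomes without 967B4, Otx2 without 981E4). In 979F minus series E the 2 genes became 3 with the trend or the filter (with Krt18), 4 with normexp (with Sox1 and Krt18) and 0 to 4 leaving out 1 clone. The 7 outlying clones became 3 with normexp. The genotype differences of single genes, none of them called, changed sign in 62 of 746 recomputed values, in 20 of the 34 genes: 13 with slide as a fixed block, 4 with slide as a random block, and 12 on leaving out 1 clone or another. The sign held under these 22 alternatives for the other 14, among them Sox17, Sparc, Col4a1, Col4a2 and Pax6. These counts leave out experiment number as a block. With that block, Fgf8 (0.02), Fgf5 (0.42) and Tfap2c (-0.25), which are among the 14, changed sign as well. Of the calls of Nes and Tfap2c, 15 were lost and none changed sign. In alternatives added after seeing the data, the sets of clones were counted again with normexp, the percentile of detected probes and the deposited table. Only normexp changed them: T joined the genes lowest in 979F, and Sox17 left those lowest in 967B4. The causes of these shifts were not tested. Slide as a block, fixed or random, was not run in the fit of series, where it could not be estimated because each series lies on 1 slide. Dim genes such as Mixl1 and Mesp1, not above background on any array, have no measured level.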
